A study of Homo sapiens with 12 samples.

Results

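A set of 10 genes that are commonly read as markers of epithelial or mesenchymal state was followed, picked by symbol from the 58721 genes of the deposited tables. They are the epithelial adhesion genes CDH1, EPCAM, CLDN4 and CLDN7, the mesenchymal genes CDH2, VIM and FN1, and the transcription factors ZEB1, ZEB2 and SNAI2. RNA-seq of poly-A RNA had been made from Pa-Tu-8902 and MIA PaCa-2, established human pancreatic cancer cell lines, each carrying an shRNA against GOT1 that doxycycline (dox) switches on. GOT1 is the cytosolic aspartate aminotransferase. Each line was kept without dox (untreated) or given dox for 5 days, with 3 libraries in each of the 4 groups. The labels write the dose as 1 µM/mL, and the paper's methods as 1 µg/mL. All 12 libraries carry the shRNA construct and none has dox without it, so what dox does by itself and what the loss of GOT1 does cannot be told apart. Neither the labels nor the methods say whether the 3 libraries of a group came from separate cultures, so the p-values measure the spread between these libraries, which may be technical.

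Epithelial cells hold to each other through adherens junctions built on E-cadherin (CDH1) and tight junctions that contain claudins. In an epithelial-mesenchymal transition these junctions are lost, vimentin (VIM), N-cadherin (CDH2) and fibronectin (FN1) are gained, and repressors of the ZEB and SNAI families bind E-box motifs at epithelial genes. Pancreatic cancer lines are known to lie at different points between the epithelial and the mesenchymal ends.

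Libraries held 26226537 to 43406137 expected counts. GOT1 itself lay at 78.3 to 83.4 TPM (a level scaled to transcript length and library size) in untreated Pa-Tu-8902 and 3.29 to 4.51 with dox. The untreated MIA PaCa-2 libraries had 38.9 to 44.1 TPM and the dox libraries 1.68 to 1.95 TPM, so every dox library showed the knockdown that its label states. The keratins KRT8, KRT18 and KRT19 of carcinoma epithelium were present in all 12 libraries, the lowest level being 128 TPM for KRT19 in MIA PaCa-2 with dox, while KRT7 lay at 1076 to 1443 TPM in untreated Pa-Tu-8902 but 0.25 to 0.53 TPM in the untreated libraries of MIA PaCa-2. The summed level of 4 acinar markers stayed at or under 0.26 TPM in each library, and that of 4 endothelial markers at or under 1.14 TPM. The 5 leukocyte markers summed to 3.38 to 6.87 TPM in Pa-Tu-8902 libraries and 9.11 to 13.5 TPM in those of MIA PaCa-2, mostly from CD68 and CD14, with PTPRC at 0.14 TPM or less. One library stood apart: the third untreated Pa-Tu-8902 library held 110 counts of 8 genes that have at least 5000 counts in every untreated MIA PaCa-2 library and at most 10 in each of the other 5 Pa-Tu-8902 libraries, which held 6 to 18.1 counts of them. These 110 counts were 0.102% of the mean count of the 8 genes in untreated MIA PaCa-2, and COL1A2, a collagen gene, led them with 41 counts against at most 2. VIM, which is abundant in MIA PaCa-2, is given with and without this library. In the same check turned round, the third dox library of MIA PaCa-2 held 83 counts of 12 genes that are high in Pa-Tu-8902, against 32 to 56 in the other 5 libraries of its line. The first dox library held 54 counts of 10 such genes against 23 to 50. In each check the limit of 10 counts applied to the other 5 libraries only, so the rule itself favours a higher count in the library checked.

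The untreated lines were compared first. Pa-Tu-8902 carried the epithelial genes at high levels and MIA PaCa-2 carried VIM and ZEB1, with CDH1, EPCAM and CLDN7 close to 0, but the split was not complete in either line: CLDN4 was abundant in both, and CDH2, FN1 and SNAI2 were higher in Pa-Tu-8902. In untreated Pa-Tu-8902 the order by mean TPM was EPCAM, CLDN4, CLDN7, CDH1, VIM, SNAI2, CDH2, FN1, ZEB1 and ZEB2, and the libraries of neighbours overlapped only for CDH2 with FN1 and FN1 with ZEB1. In untreated MIA PaCa-2 it was VIM, CLDN4, ZEB1, SNAI2, CLDN7, EPCAM, FN1, CDH1, CDH2 and ZEB2. There CLDN7 overlapped EPCAM, EPCAM overlapped FN1, and the last 3 genes overlapped in turn.

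**Figure D1:**
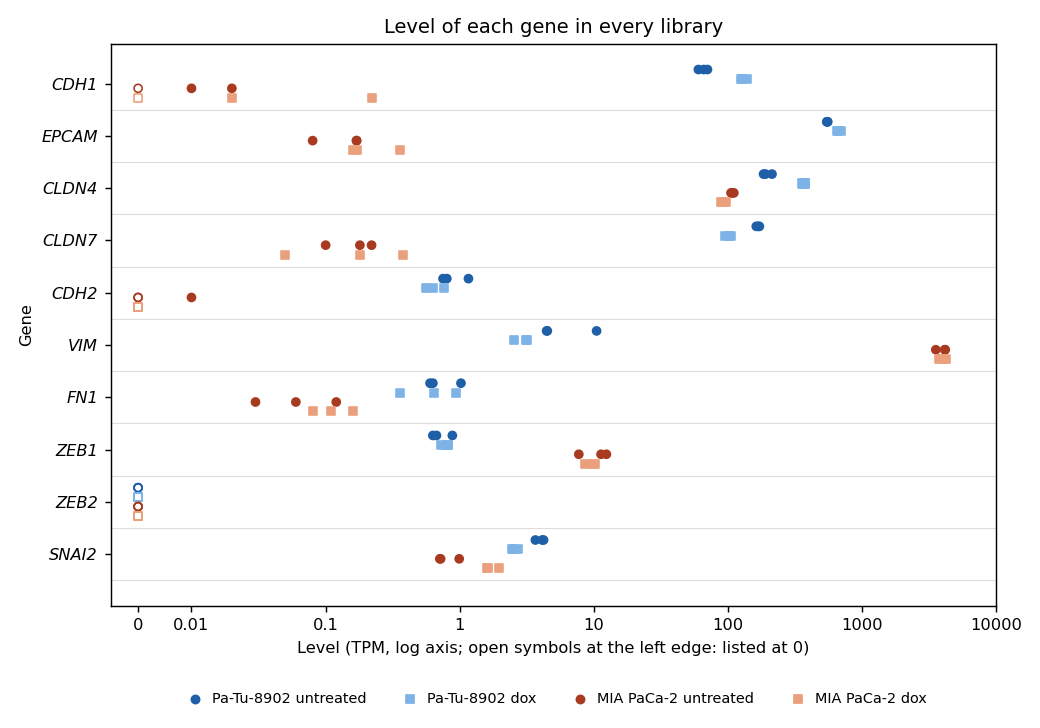
Level of the 10 genes in each of the 12 libraries, in TPM on a log axis, with open symbols at the left edge for libraries listed at 0. Circles are untreated and squares dox libraries, blue for Pa-Tu-8902 and red for MIA PaCa-2. CDH1, EPCAM and CLDN7 lie at 60.0 TPM or more in every Pa-Tu-8902 library and below 0.4 TPM in every MIA PaCa-2 library, while CLDN4 is at 89.0 TPM or more throughout.

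CDH1 (E-cadherin, chr16:68737292-68835537, plus strand, GRCh38) lay at 65.8, 70.2 and 60.0 TPM in the untreated Pa-Tu-8902 libraries and at 0, 0.01 and 0.02 TPM in the untreated MIA PaCa-2 libraries. The latter rest on 0, 1 and 1 counts, which is at the limit of detection. Summed over the libraries, 16422 counts stood against 2, a ratio of 8309 with a 95% counting interval of 2299.9 to 68618 (exact conditional binomial). This interval covers counting error only. EPCAM (chr2:47345158-47387601, plus strand), a surface adhesion molecule used as a carcinoma marker, was the highest of the 10 in Pa-Tu-8902 at 543, 553 and 548 TPM. In MIA PaCa-2 it lay at 0.17, 0.08 and 0.17 TPM, from 13 counts in all, a ratio of 4495 (2629 to 8443).

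CLDN7 (chr17:7259903-7263983, minus strand), a tight-junction claudin, lay at 162, 171 and 168 TPM in untreated Pa-Tu-8902 and at 0.10, 0.18 and 0.22 TPM in untreated MIA PaCa-2. The ratio of summed counts was 1563 (823.0 to 3418). Its exons overlap those of ELP5 on the opposite strand, and the counting is not stated to use strand. ELP5 lay at a mean of 152 TPM in untreated MIA PaCa-2, where CLDN7 had at most 4 counts per library. The few EPCAM and CLDN7 counts of MIA PaCa-2 can be set beside 9 genes with at least 5000 counts in each untreated Pa-Tu-8902 library and at most 10 in the other MIA PaCa-2 libraries, whose summed count in the untreated MIA PaCa-2 libraries was 0.0237% to 0.0294% of that in Pa-Tu-8902. The dox libraries of MIA PaCa-2 held 0.0361% to 0.0561% by the same measure, over 9 to 12 genes. The highest EPCAM count of the line, 11, is in the third dox library. EPCAM itself meets the rule for that library, so these 11 counts are part of its summed count of 83. They are therefore not a separate measure to set beside that sum. In the untreated libraries EPCAM summed to 13 counts in MIA PaCa-2 against 57747 in Pa-Tu-8902, and CLDN7 to 9 against 13899, which is a larger share. Whether the EPCAM and CLDN7 counts of MIA PaCa-2 come from the cells or from other libraries was not tested.

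CLDN4 (chr7:73799542-73832690, plus strand), another tight-junction claudin, did not share this pattern. It lay at 184, 190 and 212 TPM in untreated Pa-Tu-8902 and at 108, 105 and 110 TPM in untreated MIA PaCa-2. The groups did not overlap, and Pa-Tu-8902 was higher by 0.82 ± 0.08 on the log2 scale (SE, edgeR quasi-likelihood test, adjusted p = 7.05e-07). CLDN4 was thus the only one of the 4 epithelial genes with more than 11 counts in any MIA PaCa-2 library, and it ranked second of the 10 there.

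The transcription start windows of the claudins are shown because one gene is nearly silent in MIA PaCa-2 and the other is not. Windows of 300 bases from RefSeq (GRCh38.p14), 250 before and 50 after an annotated start, were read for 7 of the 10 members. No window was read for CDH1, EPCAM and SNAI2, so the motif was not searched in them. The motif searched was CACCTG on both strands (CACCTG or CAGGTG), an E-box form that ZEB and SNAI factors are known to bind, and matches are printed in capitals. The motif occurs in 20.6% of all 35116 windows. A match is a description of the letters and not evidence of binding.
CLDN7, chr17:7262429-7262728, minus strand: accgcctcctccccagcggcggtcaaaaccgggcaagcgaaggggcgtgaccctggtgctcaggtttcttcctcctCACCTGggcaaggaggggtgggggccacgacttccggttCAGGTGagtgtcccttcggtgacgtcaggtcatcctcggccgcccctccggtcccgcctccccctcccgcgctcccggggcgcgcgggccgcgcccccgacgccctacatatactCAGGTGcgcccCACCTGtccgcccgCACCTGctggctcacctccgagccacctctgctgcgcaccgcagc
CLDN7, chr17:7263164-7263463, minus strand: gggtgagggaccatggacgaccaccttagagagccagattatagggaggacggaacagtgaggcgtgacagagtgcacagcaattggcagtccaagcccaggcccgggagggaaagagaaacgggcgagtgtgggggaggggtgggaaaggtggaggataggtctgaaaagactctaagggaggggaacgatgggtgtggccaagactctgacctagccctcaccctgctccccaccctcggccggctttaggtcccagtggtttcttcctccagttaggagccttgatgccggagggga
CLDN4, chr7:73830746-73831045, plus strand: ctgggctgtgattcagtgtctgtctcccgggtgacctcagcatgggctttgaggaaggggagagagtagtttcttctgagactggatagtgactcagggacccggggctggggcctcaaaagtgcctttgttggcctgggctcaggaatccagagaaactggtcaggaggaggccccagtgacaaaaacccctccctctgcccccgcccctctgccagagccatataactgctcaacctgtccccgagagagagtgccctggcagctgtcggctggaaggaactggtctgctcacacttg
ZEB1, chr10:31318966-31319265, plus strand: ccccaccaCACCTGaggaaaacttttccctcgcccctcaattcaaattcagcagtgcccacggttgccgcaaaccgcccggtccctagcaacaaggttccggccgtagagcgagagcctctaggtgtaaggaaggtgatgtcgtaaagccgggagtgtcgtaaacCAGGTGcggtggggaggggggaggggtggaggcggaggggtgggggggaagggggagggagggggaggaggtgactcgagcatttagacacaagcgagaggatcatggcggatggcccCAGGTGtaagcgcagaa

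The first CLDN7 window held 5 matches, starting at 174, 135, 20 and 9 bases before the annotated start and at base 6 after it. 5 or more are found in 33 windows, or 0.094% of all. It lies at the start of a transcript that is the first of the annotated CLDN7 transcripts, which took 70.0% ± 5.5 (SD, n = 3) of CLDN7 TPM in untreated Pa-Tu-8902. The second CLDN7 window, at the start of a transcript with 21.7% ± 2.1 (SD, n = 3) of the TPM, held none, and the CLDN4 window held none. One of the 7 ZEB1 windows held 3 matches (0.635% of all windows hold 3 or more), another held 1, and the windows of VIM, FN1, CDH2 and ZEB2 held none. No ZEB1 window was matched to the start of the transcripts with 52.4% ± 6.8 and 31.8% ± 2.2 of ZEB1 TPM in untreated MIA PaCa-2. Nor was the VIM window matched to the transcript with 98.7% ± 0.1 of VIM TPM there (SD, n = 3). The looser E-box CANNTG occurs in 68.7% of windows, with 5 matches in the first CLDN7 window, 1 in the second and 2 in that of CLDN4.

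VIM (chr10:17228241-17237593, plus strand), the intermediate filament of mesenchymal cells, was the highest of the 10 in MIA PaCa-2 at 4112, 3531 and 4154 TPM. In untreated Pa-Tu-8902 it lay at 4.44, 4.49 and 10.5 TPM, the last in the library that stood apart. MIA PaCa-2 was higher in every library, and the log2 ratio of Pa-Tu-8902 to MIA PaCa-2 was -9.37 ± 0.29 (adjusted p = 4.41e-12). Without that library it was -9.91 ± 0.12. CDH2 (N-cadherin, chr18:27932879-28177946, minus strand) went the other way, at 1.16, 0.80 and 0.75 TPM in Pa-Tu-8902 and 0.01, 0 and 0 TPM in MIA PaCa-2, from 193 counts against 1, a ratio of 195 (34.6 to 7754). The line without E-cadherin therefore carried no measurable N-cadherin transcript either, at this depth.

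FN1 (fibronectin, chr2:215360440-215436073, minus strand) was low in both lines, at 0.63, 0.60 and 1.02 TPM in untreated Pa-Tu-8902 and 0.12, 0.03 and 0.06 TPM in untreated MIA PaCa-2. The log2 ratio was 1.68 ± 0.36 (adjusted p = 0.000837), and 3.38 when the effective gene lengths of each library were included. In untreated Pa-Tu-8902, 66.7% to 82.5% of FN1 TPM was assigned to transcripts annotated as retained introns, and protein-coding FN1 transcripts summed to 0.16 to 0.20 TPM.

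ZEB1 (chr10:31318495-31529814, plus strand), a zinc finger repressor of epithelial genes, lay at 12.4, 7.71 and 11.3 TPM in untreated MIA PaCa-2 and 0.88, 0.67 and 0.63 TPM in untreated Pa-Tu-8902. The groups did not overlap, and the log2 ratio was -4.39 ± 0.15 (adjusted p = 8.55e-12), which is 21.0-fold higher in MIA PaCa-2. ZEB1 overlaps ZEB1-AS1 on the opposite strand, which lay at a mean of 11.6 TPM in untreated MIA PaCa-2 and 6.12 TPM in untreated Pa-Tu-8902. ZEB2 (chr2:144364364-144521057, minus strand), its paralogue, had 0 counts in all 12 libraries, which allows up to 0.0691 to 0.114 CPM (counts scaled to library size), depending on the library. SNAI2 (Slug, chr8:48917598-48921740, minus strand), a repressor of the SNAI family, was higher in the epithelial line, at 4.12, 3.66 and 4.21 TPM in Pa-Tu-8902 against 0.71, 0.72 and 0.99 TPM in MIA PaCa-2 (log2 ratio 2.25 ± 0.19, adjusted p = 9.71e-08).

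Of the 10 genes, 9 passed the count filter in this comparison and all 9 were called, by which is meant an adjusted p under 0.01 with a change of 1.5-fold or more, where 58.1% of all 15608 genes tested were called. Among the 9, CDH1, EPCAM, CLDN7 and CDH2 had under 10 counts in every untreated MIA PaCa-2 library and passed through Pa-Tu-8902 alone, so their calls followed from the filter.

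Other genes of the same state were read from 4 lists. Of 22 junction genes, 21 were higher in Pa-Tu-8902, 0 were lower and 1 was not called (median log2 ratio 4.02, against -0.03 over all genes tested), and 6 of them had under 10 counts throughout 1 line. The desmosomal plakophilin PKP2 lay at 65.4 TPM against 0.05. Of 22 other epithelial genes, 21 were higher and 0 lower, with a median of 8.52, and 12 had under 10 counts throughout 1 line. They included the epithelial splicing factor ESRP1 (122 against 0.16 TPM) and the membrane protease ST14 (317 against 0.08 TPM). The one that was not called was EHF, an epithelial ETS factor, at 47.5 ± 5.0 TPM in Pa-Tu-8902 and 51.1 ± 7.75 TPM in MIA PaCa-2 (SD, n = 3).

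The mesenchymal list was divided. Of 18 genes tested, 10 were higher in MIA PaCa-2, 6 were higher in the other line and 2 were not called, with a median log2 ratio of -2.71, and 4 had under 10 counts throughout 1 line. The collagen cross-linking enzyme LOXL2 lay at 129 TPM in MIA PaCa-2 and 0.13 TPM in Pa-Tu-8902, whereas the matrix protein thrombospondin (THBS1) lay at 25.1 TPM in Pa-Tu-8902 and 0.01 TPM in MIA PaCa-2. Of 12 other EMT transcription factors 7 were tested, of which 3 had under 10 counts throughout 1 line. Of the 7, 3 were higher in each line, and the forkhead factor FOXQ1 was the one with the smallest p, at 15.9 against 0.08 TPM. FOXQ1 was among the 3 with few counts, at a mean of 4.28 normalized counts in untreated MIA PaCa-2. All 3 were called, and their calls followed from the filter. The same holds for PKP2, ESRP1 and THBS1, given above, which had under 10 counts throughout untreated MIA PaCa-2. Background shares were 28.9% of genes higher in Pa-Tu-8902 and 29.3% lower.

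**Figure D2:**
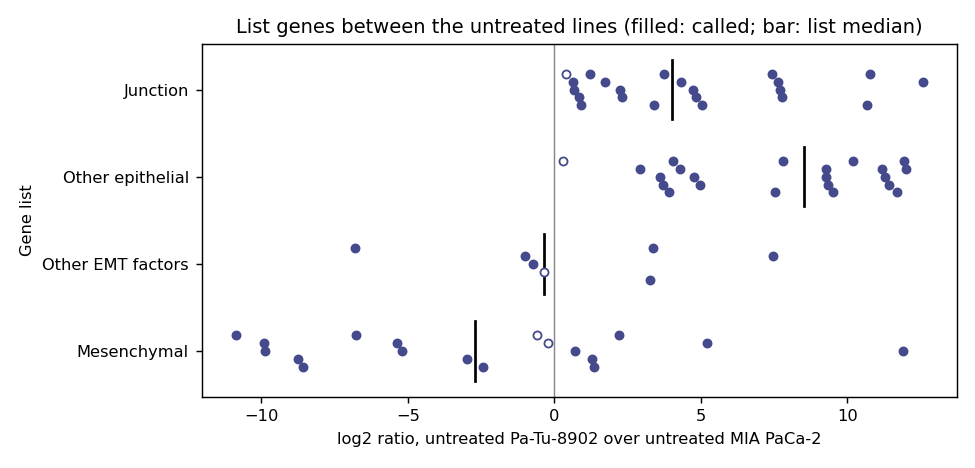
Log2 ratio of untreated Pa-Tu-8902 to untreated MIA PaCa-2 for the genes of 4 lists, 1 point a gene, filled where called, with the list median as a bar. Junction and other epithelial genes lie to the right of 0 and their medians are 4.02 and 8.52, while mesenchymal genes spread to both sides around -2.71.

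In Pa-Tu-8902, dox raised CDH1 and CLDN4 and lowered CLDN7 and SNAI2, so 2 claudins of the same line moved in opposite directions. CDH1 lay at 124, 139 and 127 TPM with dox, above every untreated library. Its normalized count (the count scaled to a common library size) was 5967 ± 155 without and 10825 ± 379 with dox (SD, n = 3), which is a log2 fold change of 0.86 ± 0.05 (SE, edgeR, adjusted p = 2.39e-07). CLDN4 rose to 357, 374 and 373 TPM, again with no overlap (log2 fold change 0.83 ± 0.08, adjusted p = 8.74e-06). CLDN7 dropped to 95.6, 104 and 101 TPM, below every untreated library (log2 fold change -0.87 ± 0.07, adjusted p = 2.0e-06). The TPM of the antisense-strand neighbour ELP5 was also lower with dox, at a mean of 43.7 against 82.2, and its part in the CLDN7 value was not tested.

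EPCAM lay at 645, 657 and 699 TPM with dox and did not overlap the untreated libraries, but its log2 fold change of 0.20 ± 0.05 (adjusted p = 0.00892) was under the 1.5-fold limit and it was not called. The most abundant transcript of each adhesion gene was the same with and without dox. That of CDH1 took 59.5% ± 5.4 of CDH1 TPM untreated and 56.5% ± 6.1 with dox, and a retained-intron transcript took 20.5% ± 6.2 and 23.6% ± 3.4 (SD, n = 3). That of CLDN7 took 61.8% ± 4.3 with dox, against the 70.0% ± 5.5 given above, and those of EPCAM and CLDN4 took means of 98.9% and 99.3% with dox. These shares are estimates from reads that several transcripts share, and were not tested.

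SNAI2 dropped to 2.71, 2.48 and 2.45 TPM with dox, below every untreated library, with a log2 fold change of -0.79 ± 0.14 (adjusted p = 0.000699). It rests on 89 to 183 counts a library. VIM lay at 2.54, 3.15 and 3.10 TPM with dox, below the 3 untreated values, and its log2 fold change was -1.16 ± 0.32 (adjusted p = 0.0117), which missed the limit. Without the third untreated library it was -0.60 ± 0.16 (adjusted p = 0.0121). It was called without the first untreated library (-1.40, adjusted p = 0.00372) or without the second (-1.36, adjusted p = 0.00811). The part that the MIA PaCa-2 genes in that library have in the VIM value was not tested.

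The other genes were not called in Pa-Tu-8902. CDH2 lay at 0.63, 0.56 and 0.76 TPM with dox, overlapping the untreated libraries (log2 fold change -0.38 ± 0.22, adjusted p = 0.180). FN1 lay at 0.64, 0.36 and 0.93 TPM (-0.27 ± 0.23, adjusted p = 0.371). ZEB1 lay at 0.81, 0.72 and 0.81 TPM, within the untreated range on this scale, while its counts gave 0.35 ± 0.19 (adjusted p = 0.153), or 0.03 when effective gene lengths were included. In all, 4 of 9 genes tested were called, 2 higher and 2 lower, where 16.3% of 14949 genes were called.

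**Figure D3:**
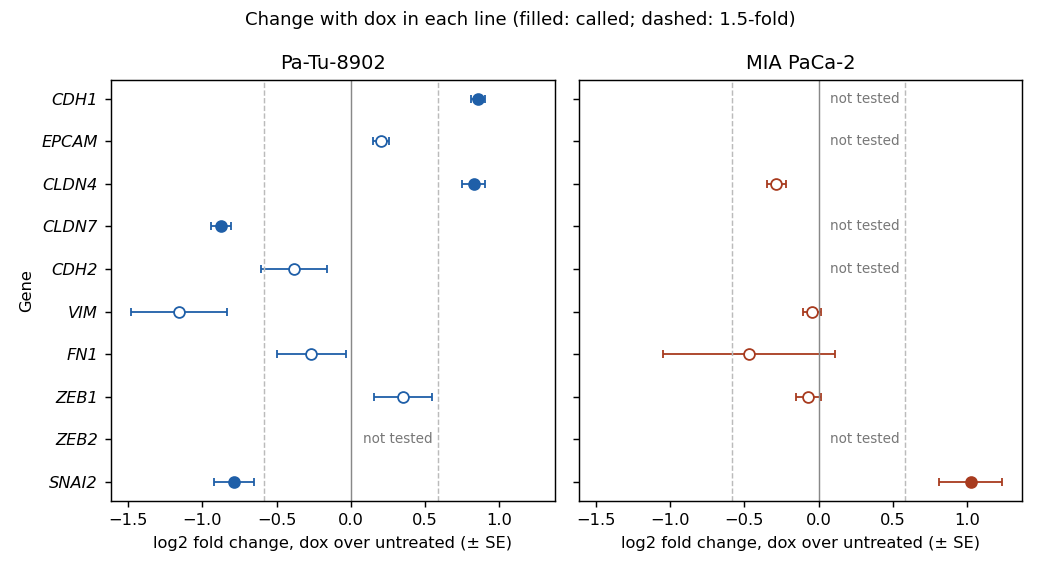
Log2 fold change of dox over untreated with its SE for each gene in each line, filled where called, with dashed lines at 1.5-fold. In Pa-Tu-8902 CDH1 and CLDN4 lie at 0.86 and 0.83, CLDN7 and SNAI2 at -0.87 and -0.79. In MIA PaCa-2 only SNAI2, at 1.02, is called.

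In MIA PaCa-2, SNAI2 was the one gene of the 10 that was called, and it was higher with dox. It lay at 1.61, 1.60 and 1.96 TPM with dox against 0.71, 0.72 and 0.99 TPM untreated, without overlap. The normalized count was 35.7 ± 5.5 without and 72.2 ± 10.3 with dox (SD, n = 3), which is a log2 fold change of 1.02 ± 0.21 (adjusted p = 0.00278). The call was lost without the first untreated library (0.90, adjusted p = 0.0121) and without the third dox library (0.89, adjusted p = 0.0213). Here 1 of 5 genes tested was called, where 12% of 14589 genes were.

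VIM and ZEB1, the high mesenchymal genes of this line, stayed within the spread of their libraries. VIM lay at 3931, 4218 and 3719 TPM with dox, across the untreated range, with a log2 fold change of -0.04 ± 0.06 (adjusted p = 0.589). ZEB1 lay at 9.72, 10.2 and 8.61 TPM (-0.07 ± 0.09, adjusted p = 0.551). CLDN4 lay at 96.3, 89.0 and 89.6 TPM, below the 3 untreated values, but by -0.28 ± 0.07 on the log2 scale (adjusted p = 0.00523), under the 1.5-fold limit.

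CDH1 remained at 4, 0 and 2 counts with dox, EPCAM at 5, 5 and 11, CLDN7 at 1, 4 and 4, and CDH2 at 0 in each library, too few to test. FN1, at 3, 12 and 6 counts, gave -0.47 ± 0.58 (adjusted p = 0.546). No gain of these transcripts was thus detectable at this depth in MIA PaCa-2 after 5 days.

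**Figure D4:**
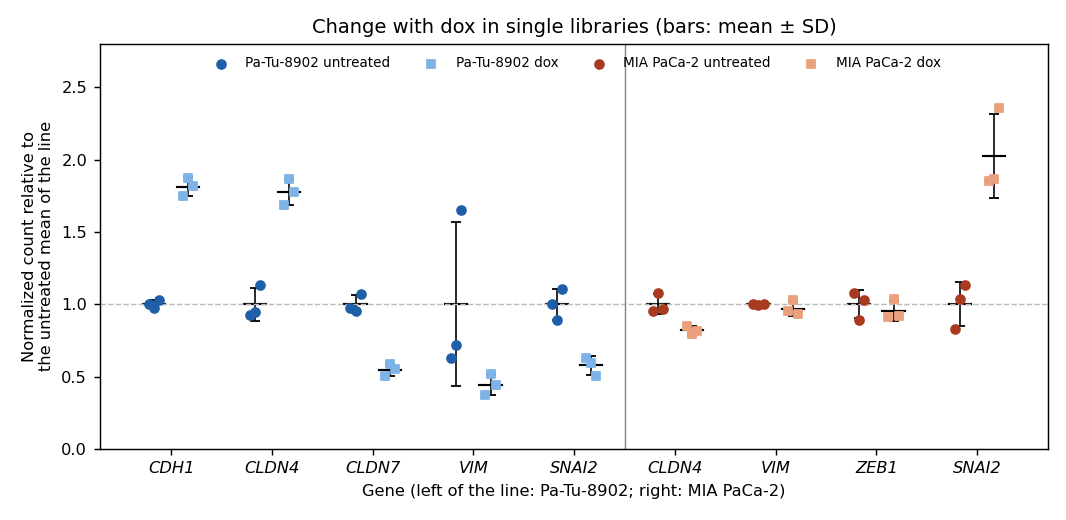
Normalized count of each library divided by the untreated mean of its line, with the mean and SD of 3 libraries as bars. In Pa-Tu-8902 (left) VIM has 1 untreated library at 1.65 and the others at 0.63 and 0.72. SNAI2 dox libraries lie at 0.50 to 0.63 on the left and at 1.85 to 2.36 for MIA PaCa-2 on the right.

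Whether the dox effect differs between the lines was tested as an interaction over all 12 libraries. SNAI2 differed, falling in one line and rising in the other, by -1.82 ± 0.24 (Pa-Tu-8902 effect minus MIA PaCa-2 effect, log2 scale, adjusted p = 2.76e-05). CLDN4 differed by 1.12 ± 0.11 (adjusted p = 9.67e-07). VIM, at -1.11 ± 0.32 (adjusted p = 0.0145), was not called. Its value was -0.55 (adjusted p = 0.0129) without the third untreated Pa-Tu-8902 library, and it was called without the first (-1.35, adjusted p = 0.00252) or the second (-1.32, adjusted p = 0.00514). ZEB1 was not called (0.41 ± 0.19, adjusted p = 0.119). CDH1, EPCAM, CLDN7, CDH2 and FN1 gave standard errors of 0.41 to 1.37, because MIA PaCa-2 held so few of their counts, and a difference could not be read for them. The 2 calls among 9 genes tested, 1 higher and 1 lower in Pa-Tu-8902 relative to MIA PaCa-2, stand against 10.4% of 16544 genes (6.56% higher and 3.86% lower).

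The lists gave the surroundings of these changes. In Pa-Tu-8902, 4 of 22 junction genes rose, 4 fell and 14 were not called (median 0.00, as over all genes). CLDN1, a further claudin, went from 22.0 to 68.1 TPM and the scaffold TJP3 from 9.16 to 27.2 TPM, while the desmosomal cadherin DSG2 fell by 0.88 on the log2 scale. Of 22 other epithelial genes, 4 rose and 1 fell (median 0.20). EHF rose by 1.07 ± 0.06 and the surface glycoprotein MUC1 by 0.80 ± 0.05. The share of all genes called was 9.22% for higher and 7.12% for lower.

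The mesenchymal list did not fall as a body in Pa-Tu-8902: of 15 genes tested, 5 rose, 2 fell and 8 were not called (median 0.33). Of the 15, 1 had under 10 counts throughout 1 group. The collagen genes COL1A1 and COL6A1 rose by 1.87 ± 0.09 and 1.27 ± 0.06, and the receptor tyrosine kinase AXL fell by 1.26 on the log2 scale. The fibroblast markers summed to 3.82 to 6.38 TPM without and 18.1 to 21.7 TPM with dox, nearly all from COL1A1, which is on both lists. Of the other 6 markers, PDGFRB, also on both lists, went from 0.04 to 0.07 TPM to 0.22 to 0.41 TPM and was called (log2 fold change 1.73, adjusted p = 0.00152), COL1A2 was at most 0.50 TPM, and DCN, LUM, PDGFRA and COL3A1 were at 0 without dox and at most 0.14 TPM with it. Their part in the list's counts was not tested. The summed carcinoma keratins were 8595 to 9703 TPM without and 7118 to 8111 TPM with dox, which do not overlap. RUNX2, a runt-domain factor, was the only one of 6 other EMT factors tested that was called, at -1.40 ± 0.21 (adjusted p = 0.000269).

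In MIA PaCa-2, 2 of 16 junction genes tested rose and 4 fell. The tight-junction protein cingulin (CGN, 1.19 ± 0.12) was among the former, and beta-catenin (CTNNB1, -0.90 ± 0.06) and DSG2 (-0.89 ± 0.18) among the latter. CGN and CTNNB1 were also called in Pa-Tu-8902, at 0.98 ± 0.08 and -0.66 ± 0.04, as was DSG2, given above. CGN, CTNNB1 and DSG2 were not called in the interaction (edgeR, adjusted p = 0.283, 0.0255 and 0.996). Of 10 other epithelial genes tested, 0 rose and 3 fell, namely EHF (-0.77 ± 0.08), the tricellular junction receptor LSR (-0.99 ± 0.17) and the ETS factor ELF3 (-0.73 ± 0.18), which kept its call in 10 of 16 alternatives. The summed carcinoma keratins overlapped, at 2716 to 2983 TPM without and 2829 to 3060 TPM with dox, but KRT19 was at 384 to 413 TPM without and 128 to 132 TPM with dox, while KRT8 and KRT18 were higher in each dox library than in any untreated one. Of 17 mesenchymal genes, 7 rose and 3 fell (median 0.69, against -0.01 over all genes). COL5A2 rose from 51.7 to 141 TPM and AXL from 17.8 to 40.7 TPM, while COL6A3 fell from 16.0 to 7.94 TPM. The fibroblast markers summed to 192 to 248 TPM without and 340.4 to 398 TPM with dox, nearly all from COL1A2, also on both lists, and LUM was at 0 throughout. Among 5 other EMT factors tested, 0 were called. Background shares were 4.36% higher and 7.64% lower.

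**Figure D5:**
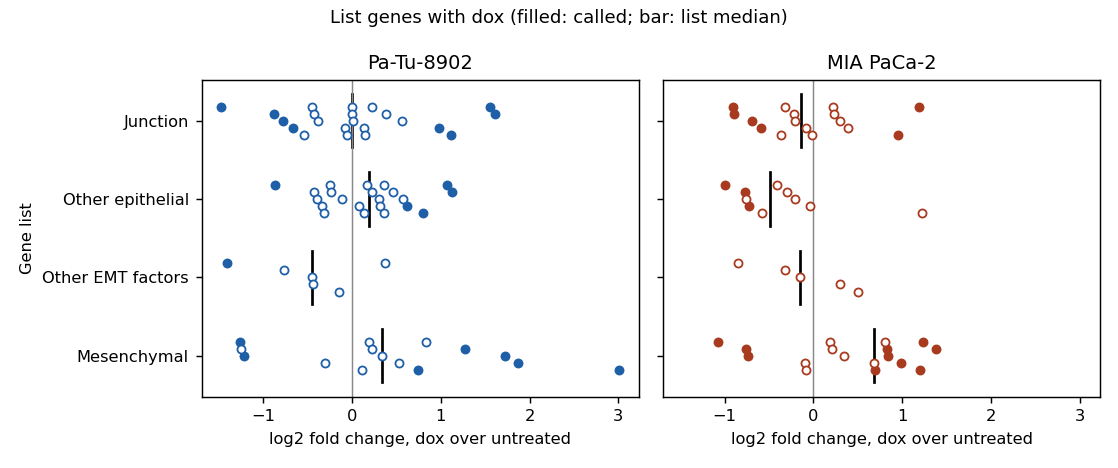
Log2 fold change of dox over untreated for the genes of the 4 lists in each line, 1 point a gene, filled where called, with the list median as a bar. The mesenchymal medians lie at 0.33 (Pa-Tu-8902) and 0.69 (MIA PaCa-2 panel), and those of the other epithelial genes at 0.20 and -0.50.

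Genes whose levels most resembled CDH1 and ZEB1 over the 12 libraries were ranked by Pearson's r of log2(TPM + 1) among the 13743 genes whose mean reached 1 TPM. For CDH1 they were TH, MOB3B and B3GNT3, and for ZEB1 HTR6, PTPRG and DDR2, all with r above 0.99. With 527 and 353 genes above 0.99, the ranking largely repeats the contrast of the lines, and with a pseudocount of 0.1 none of the 3 names remained for either gene.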

How the data were processed

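RNA-seq of 12 libraries was re-analysed from tables that the authors deposited. The authors trimmed reads with Trimmomatic 0.39 and aligned them with STAR 2.5.2a under RSEM 1.3.1 at default settings. They deposited expected counts, TPM and FPKM for genes, and counts and TPM for transcripts, on GRCh38. The deposited effective lengths (unit: score) served an alternative only. The methods name a directional kit, but counting is not stated to use strand. 5.34% of expected counts were not whole numbers.

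The quasi-likelihood F test of edgeR 4.0.16 (R 4.3.3) was run on rounded counts with TMM scaling. A gene entered a fit with 10 or more counts in 3 or more of its libraries, or in as many as the smaller group has where a library was left out. Lines were fitted separately for dox, the untreated groups together for the line comparison, and all 12 libraries for the interaction. A gene was called where the p adjusted by Benjamini-Hochberg was under 0.01 and the change 1.5-fold or more. SEs are the absolute log2 fold change over the square root of F. Normalized counts are relative to the mean effective library size of a fit. The test was checked on simulated data. DESeq2 1.42.0, other scalings and filters, and each library left out were alternatives. Depth is given in the report; a count of 0 was read as up to 3 counts, and intervals and such limits cover counting error only. Positions come from GENCODE 44, which uses this assembly, by Ensembl identifier.

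The members and lists were chosen with earlier results of these data known. Genes named are the 10 members, GOT1, up to 3 called genes per list and comparison with the smallest p and a mean of at least 50 normalized counts (some of these are not reported here), and the 3 genes most like CDH1 and ZEB1. EHF in the line comparison, COL1A2, ELP5, ZEB1-AS1, PDGFRB and other single marker genes were named after their values were seen, and so was the check for genes of one line in libraries of the other. The replicate numbers were not treated as pairs: deviations of same-numbered libraries correlated at -0.152 to 0.139.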

Additional observations from a re-analysis of the deposited data

Results flagged for a closer look

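These results were picked out because the dox effect differed between the lines in the interaction test (edgeR, log2 scale, Pa-Tu-8902 effect minus MIA PaCa-2 effect). Among the 10 genes these were SNAI2, at -1.82, and CLDN4, at 1.12. Among the junction genes PATJ differed by 0.70, TJP3 by 1.37 and CLDN1 by 0.60, and CLDN1 rose in both lines, by 1.55 and 0.95. The epithelial genes EHF (1.85), MUC1 (1.38) and ELF3 (1.3) had values above 0 in Pa-Tu-8902 and below 0 in MIA PaCa-2. Of the named genes that were called in the interaction, AXL differed most, at -2.46, since it fell in Pa-Tu-8902 and rose in MIA PaCa-2, as SNAI2 did. RUNX2 differed by -1.90 and the actin-binding CALD1 by 0.92. In MIA PaCa-2 the RUNX2 means were only 12.7 normalized counts untreated and 18.4 with dox. Its change there was not called (0.50 ± 0.38, edgeR, adjusted p = 0.319). TJP3 was also low in MIA PaCa-2, at means of 19.5 normalized counts untreated and 22.9 with dox, and was not called there (0.24 ± 0.38, edgeR, adjusted p = 0.646). The interaction calls of PATJ, TJP3, CLDN1 and RUNX2 held in 20, 18, 16 and 19 of 21 alternatives, and the others in all 21. Groups of 3 libraries are too small for a test of single outlying samples.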

How the results depend on the processing

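The number of genes called depended on the fold limit: without it 5692 genes were called for dox in Pa-Tu-8902, 3973 for dox in MIA PaCa-2 and 2799 for the interaction, against 2443, 1751 and 1724. The other alternatives kept each count within 1.5 times. With 1 library left out, the counts were 2211 to 2361, 1448 to 1862, 8985 to 9197 between the untreated lines, and 1536 to 1719. With the replicate number as a block, the counts were 2380, 1735, 8891 and 1629, and VIM in Pa-Tu-8902 was called (-1.06, adjusted p = 0.00547). The block changed no other call among the 10 genes. VIM in Pa-Tu-8902 was called in 6 of 16 alternatives, at log2 fold changes of -1.40 to -0.60. The calls of CDH1, CLDN4, CLDN7 and SNAI2 in Pa-Tu-8902, and of SNAI2 and CLDN4 in the interaction, held under all alternatives run. SNAI2 in MIA PaCa-2 kept its call in 14 of 16. Signs turned only for genes with few counts and no call: FN1 with effective lengths, in MIA PaCa-2 (0.49) and in the interaction (-0.84), and, with 1 library left out, the interactions of CDH1 (-1.12 to 0.34), CDH2 (-0.39 to 1.98) and FN1 (-0.21 to 0.92). The cause was not tested. Upper-quartile scaling moved the median log2 ratio of the untreated lines to -0.12, and every call among the 9 genes tested there held. FPKM gave the same order of the 10 genes as TPM in each group. Depth limits CDH1, EPCAM, CLDN7 and CDH2 in MIA PaCa-2 and ZEB2 in both lines.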
